A study of Homo sapiens with 2 samples.

Results

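LCK, FYN, YES1, SRC and LYN encode SRC-family tyrosine kinases, and CSK encodes the kinase that holds them in check. These 6 genes were chosen by symbol, out of 33592 genes listed in 2 single-cell RNA libraries, because LCK was among the genes with the highest ratio of knockout over wild type in an earlier look at the same counts. The cells were H1, also called WA01, a long-established line of human embryonic stem cells. One library was wild type (WT). In the other, labelled a homozygous knockout (KO), ZNF263, the gene of a zinc finger transcription factor, had been deleted with Cas9. The labels state no age, dose or time and do not say which part of ZNF263 was removed or whether the KO line is 1 clone. The KO line is numbered differently in the sample's title and in the name of its deposited table, so which KO line was measured is not certain. Each genotype was measured in 1 library, by a method in which beads in microwells capture the polyadenylated RNA of single cells. There is therefore no replicate check and no test between genotypes, and every difference below is a difference between 2 libraries.

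SRC-family kinases sit on the inner face of the plasma membrane and pass signals from integrins, growth factor receptors and immune receptors. Each has a lipid-modified start, a unique region, SH3 and SH2 domains and a kinase domain. CSK phosphorylates a tyrosine near their C-terminal end, which folds the kinase into its inactive form, and phosphatases that remove this phosphate switch it on. LCK is best known as the kinase that starts T cell receptor signalling. FYN, YES1 and SRC are made in many tissues, LYN is best known from blood cells, and the YES1 protein has been tied to the self-renewal of mouse embryonic stem cells.

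Counts were unique molecular identifiers (UMIs), each standing for 1 captured RNA molecule. Barcodes counted as cells held 1000 or more UMIs and 500 or more genes, with no more than 20% of their UMIs from mitochondrial genes. They are called the kept cells, 2935 in WT (median of 1328 UMIs) and 2286 in KO (median of 1289.5 UMIs). The 56837 WT and 50551 KO barcodes with at least 250 but fewer than 1000 UMIs, called shallow barcodes here, were summed apart from them. They share the library but no barcode with the kept cells, and they may hold poorly captured cells or free RNA. Levels are UMIs scaled to a total of 1000000 (CPM). All intervals are exact 95% intervals that cover counting error only. Over 5710 genes averaging 20 CPM or more, the log2 ratios (KO over WT) had a median of -0.12, so ratios are also given relative to it. The 2 libraries list 834126 of the same barcodes, of which 20 were kept as cells in both. Of the shared barcodes, 5201 held at least 250 UMIs in both libraries. Shared barcodes were not taken out of the shallow barcodes. All 15 embryonic stem cell markers looked at, among them POU5F1, SOX2, NANOG and LIN28A, were at or above 5 CPM on average over the libraries. Of these markers 4 were at least 1.5-fold higher in KO and 0 that much lower, beside 3.94% and 13.0% of all 10129 genes averaging 5 CPM or more, and their part in the values below was not tested. ZNF263 itself held 83 UMIs (17.8 CPM) in WT cells and 27 UMIs (7.57 CPM) in KO cells, which neither bears out nor contradicts the label, since the deleted part is not known.

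LCK has 2 start sites in RefSeq (GRCh38.p14), a distal and a proximal one, 22856 bases apart. The 250 bases before each are shown because LCK had the largest difference among the 6 genes and the deleted gene encodes a DNA-binding protein, with the 250 bases before the outermost FYN start for comparison, since FYN differed in the other direction. Capitals mark TCCTCCC, the reverse complement of GGGAGGA, a short G-rich word of the kind ZNF263 is known to bind.
LCK distal, chr1:32251015-32251264, plus strand: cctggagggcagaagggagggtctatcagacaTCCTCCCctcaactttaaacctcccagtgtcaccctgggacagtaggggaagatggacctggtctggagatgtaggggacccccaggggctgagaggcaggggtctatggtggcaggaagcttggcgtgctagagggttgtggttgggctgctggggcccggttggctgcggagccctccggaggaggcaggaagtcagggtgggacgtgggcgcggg
LCK proximal, chr1:32273871-32274120, plus strand: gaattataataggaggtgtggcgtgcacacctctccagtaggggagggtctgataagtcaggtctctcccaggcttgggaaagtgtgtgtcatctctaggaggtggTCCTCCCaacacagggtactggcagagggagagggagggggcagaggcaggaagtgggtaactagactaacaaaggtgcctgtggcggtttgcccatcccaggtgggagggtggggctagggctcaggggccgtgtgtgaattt
FYN, chr6:111873453-111873702, minus strand: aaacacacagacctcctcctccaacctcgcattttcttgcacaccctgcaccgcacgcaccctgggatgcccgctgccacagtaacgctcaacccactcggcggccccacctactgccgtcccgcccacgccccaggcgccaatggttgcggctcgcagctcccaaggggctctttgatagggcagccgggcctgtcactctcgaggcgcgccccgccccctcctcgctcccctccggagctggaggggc

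The word GGGAGGA was searched on both strands of the 300 bases from 250 before to 50 after each start. It occurred once in each LCK window, on the minus strand, with its first letter on the plus strand 218 bases before the distal and 144 bases before the proximal start. None of the 4 FYN windows, the 1 YES1 window and the 1 CSK window held it. Windows of SRC and LYN were not searched. Of 35116 such windows over all genes 18.1% did, so a match is common. Only this exact word was searched, and other G-rich sequence was not counted. The FYN stretch shown holds cctcctcctcc, a run of GGA repeats on the other strand. The lack of the word in FYN is therefore not a lack of such sequence. Nothing in these data measures binding, and the counts do not tell which LCK start was used.

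LCK (chromosome 1, 32251265 to 32286165) was higher in the KO library. WT cells held 76 LCK UMIs, or 16.3 CPM (interval 12.9 to 20.5), and KO cells 147 UMIs, or 41.2 CPM (interval 34.8 to 48.4). This is a 2.52-fold higher level in the KO library (interval 1.90 to 3.37), and the log2 ratio of 1.33 (interval 0.92 to 1.75) becomes 1.45 when the median of all genes is taken off. The 2 intervals of the levels do not meet. LCK was chosen for its high ratio in these same counts, so this gap follows from the choice and is a description. LCK in the shallow barcodes was at 19.5 CPM in WT (463 UMIs, interval 17.7 to 21.3) and 33.9 CPM in KO (715 UMIs, interval 31.5 to 36.5). The ratio there was smaller, 1.74-fold (interval 1.55 to 1.96). No other listed gene overlaps LCK in the RefSeq gene table.

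FYN (chromosome 6, 111660332 to 111873452), which serves integrin, neural and T cell receptor signalling, was lower in the KO library. It was at 58.5 CPM in WT cells (272 UMIs, interval 51.7 to 65.9) and 38.4 CPM in KO cells (137 UMIs, interval 32.2 to 45.4). The log2 ratio was -0.61 (interval -0.91 to -0.31), 1.52-fold lower, or -0.49 relative to all genes, which is less than 1.5-fold. FYN in the shallow barcodes was at 60.9 CPM (1448 UMIs) and 39.2 CPM (826 UMIs), 1.55-fold lower (interval 1.43 to 1.70). LOC105377945 and LOC102724646, noncoding genes that overlap FYN, held at most 5 UMIs in the kept cells of a library.

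YES1 (chromosome 18, 721588 to 812753), a widely made kinase close in sequence to SRC and FYN, was slightly lower in the KO library. It was at 71.4 CPM in WT cells (332 UMIs, interval 63.9 to 79.5) and 58.9 CPM in KO cells (210 UMIs, interval 51.2 to 67.4), a log2 ratio of -0.28 (interval -0.53 to -0.02). Relative to all genes this was -0.16. The shallow barcodes gave -0.27 (1796 and 1317 UMIs, interval -0.38 to -0.17).

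LYN (chromosome 8, 55879835 to 56014169), which both activates and restrains signalling in blood cells, was at 77.0 CPM in WT cells (358 UMIs, interval 69.2 to 85.4) and 62.8 CPM in KO cells (224 UMIs, interval 54.8 to 71.6). Its log2 ratio was -0.29 (interval -0.54 to -0.05), and -0.18 once the median of all genes was taken off. In the shallow barcodes the log2 ratio was -0.12 (1716 and 1400 UMIs, interval -0.22 to -0.02), the same as the median of all genes there. Summed over all kept cells or all shallow barcodes, YES1 and LYN thus lay near the general shift between the libraries.

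SRC (chromosome 20, 37344699 to 37406050), the founding member of the family, held 22 UMIs in each set of kept cells, or 4.73 CPM in WT (interval 2.96 to 7.16) and 6.17 CPM in KO (interval 3.86 to 9.34). The log2 ratio of 0.38 had an interval of -0.54 to 1.30, so no difference was detectable at this depth. The shallow barcodes went the other way, with 7.53 CPM in WT (179 UMIs, interval 6.46 to 8.71) and 4.32 CPM in KO (91 UMIs, interval 3.47 to 5.30). There SRC was 1.74-fold lower in the KO library (interval 1.35 to 2.27). The sign of the SRC ratio thus differed between the kept cells and the shallow barcodes. The kept cells alone fix no direction, and the intervals of the ratios overlap, so a reversal is not shown.

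CSK (chromosome 15, 74782080 to 74803197), the inhibitory kinase, was at 16.1 CPM in WT cells (75 UMIs, interval 12.7 to 20.2) and 19.3 CPM in KO cells (69 UMIs, interval 15.1 to 24.5). Its log2 ratio of 0.26 had an interval of -0.23 to 0.75. It was -0.33 (interval -0.53 to -0.13) in the shallow barcodes, from 487 WT and 344 KO UMIs. The sign of the CSK ratio thus also differed, but the kept-cell interval includes 0 and overlaps the shallow one.

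**Figure D1:**
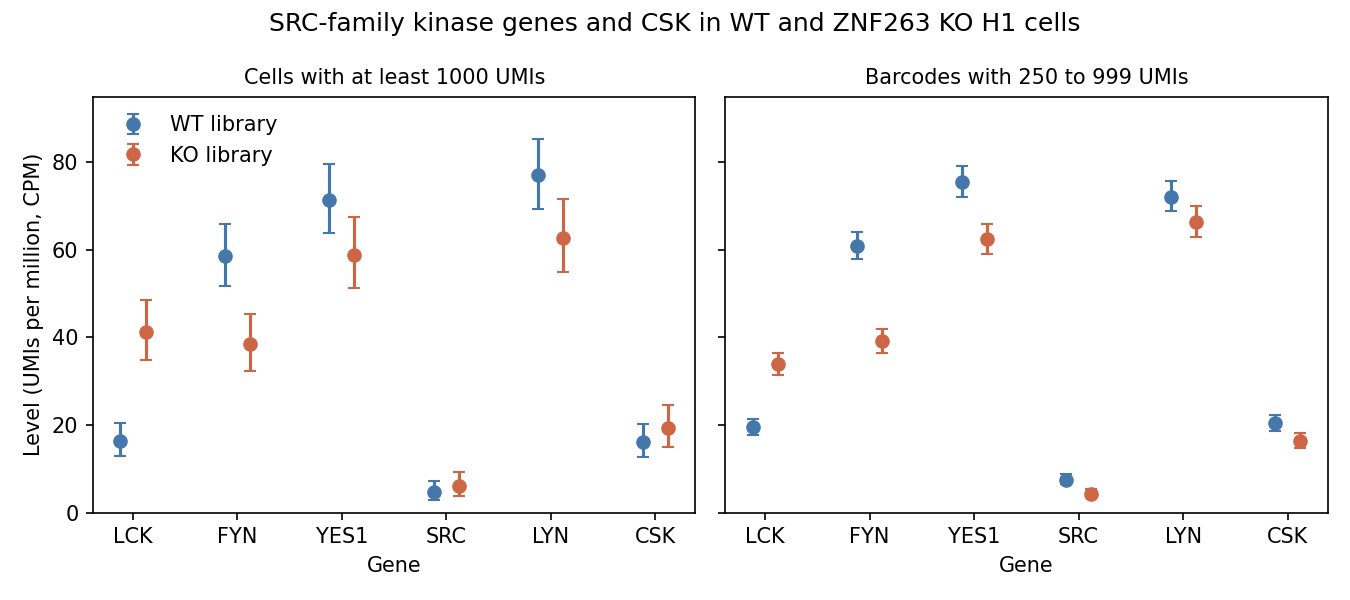
Levels of the 6 genes in CPM in the WT library (blue) and the ZNF263 KO library (orange), in cells with at least 1000 UMIs and in shallow barcodes. Points are 1 library each and bars are exact 95% counting intervals; LCK is the gene whose KO point lies far above its WT point in both panels, while SRC and CSK change order between panels, and levels are not scaled for transcript length.

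Among the 6 genes, 1 (LCK) was at least 1.5-fold higher in KO cells and 1 (FYN) at least 1.5-fold lower, where 3.94% of all 10129 genes averaging 5 CPM or more were that much higher and 13.0% that much lower. All 6 genes passed this minimum, and their median log2 ratio was -0.01, beside -0.14 over all genes. In the shallow barcodes 1 gene (LCK) was at least 1.5-fold higher, against 2.79% of all genes, and 2 (FYN and SRC) at least 1.5-fold lower, against 10.1%. The genes were chosen with the LCK ratio known, so these counts describe the choice and support nothing further.

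The family's sum and make-up are given as a description, since LCK was chosen for its high ratio, which raises its share in KO and lowers the others. The UMIs of LCK, FYN, YES1, SRC and LYN added up to 228 CPM in WT cells (1060 UMIs, interval 214 to 242) and 207 CPM in KO cells (740 UMIs, interval 193 to 223), a log2 ratio of -0.14. Without LCK the other 4 kinases were at 212 and 166 CPM, a log2 ratio of -0.35 (interval -0.50 to -0.20). LCK made up 7.17% of the family's UMIs in WT cells (exact Clopper-Pearson interval 5.69% to 8.89%) and 19.9% in KO cells (interval 17.0% to 22.9%). FYN made up 25.7% (interval 23.1% to 28.4%) and 18.5% (interval 15.8% to 21.5%). The LCK shares in the shallow barcodes were 8.26% and 16.4%. These are shares of UMIs, which are not scaled for transcript length, so they compare libraries and not the amounts of the kinases.

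The ratios were then followed over the depth of the barcodes. For LCK the log2 ratio was 0.94 in barcodes with at least 10 but fewer than 100 UMIs (interval 0.75 to 1.13) and 0.85 from there up to 250 UMIs. It was 0.73 from 250 up to 500 UMIs (interval 0.51 to 0.94), 0.93 from 500 up to 1000 UMIs and 1.33 in the kept cells. In the kept cells with at least 2000 UMIs it was 1.21 (27 and 46 UMIs, interval 0.49 to 1.95). LCK was higher in the KO library in each of these 6 sets. In order of level, the WT sets ran from 16.3 CPM in the kept cells to 20.4 CPM from 250 up to 500 UMIs, and the KO sets from 33.7 CPM in that class to 42.4 CPM with at least 2000 UMIs. Within a genotype the intervals of those sets overlapped, whereas every KO set lay above every WT set.

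FYN kept a log2 ratio between -0.67 and -0.58 in the 5 sets from 10 UMIs up to and including all kept cells, and YES1 one between -0.32 and -0.24. FYN was at -0.37 with at least 2000 UMIs, where its interval of -0.97 to 0.21 included 0. LYN ran from -0.29 to -0.06 in the same 5 sets. SRC was at -0.54, -0.16, -0.67 and -0.98 in the 4 sets below 1000 UMIs, against 0.38 in the kept cells. CSK was at -0.05, -0.49, -0.14 and -0.66 there, against 0.26. The depth classes of 1 library share their culture and preparation, so their likeness is no replicate check.

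**Figure D2:**
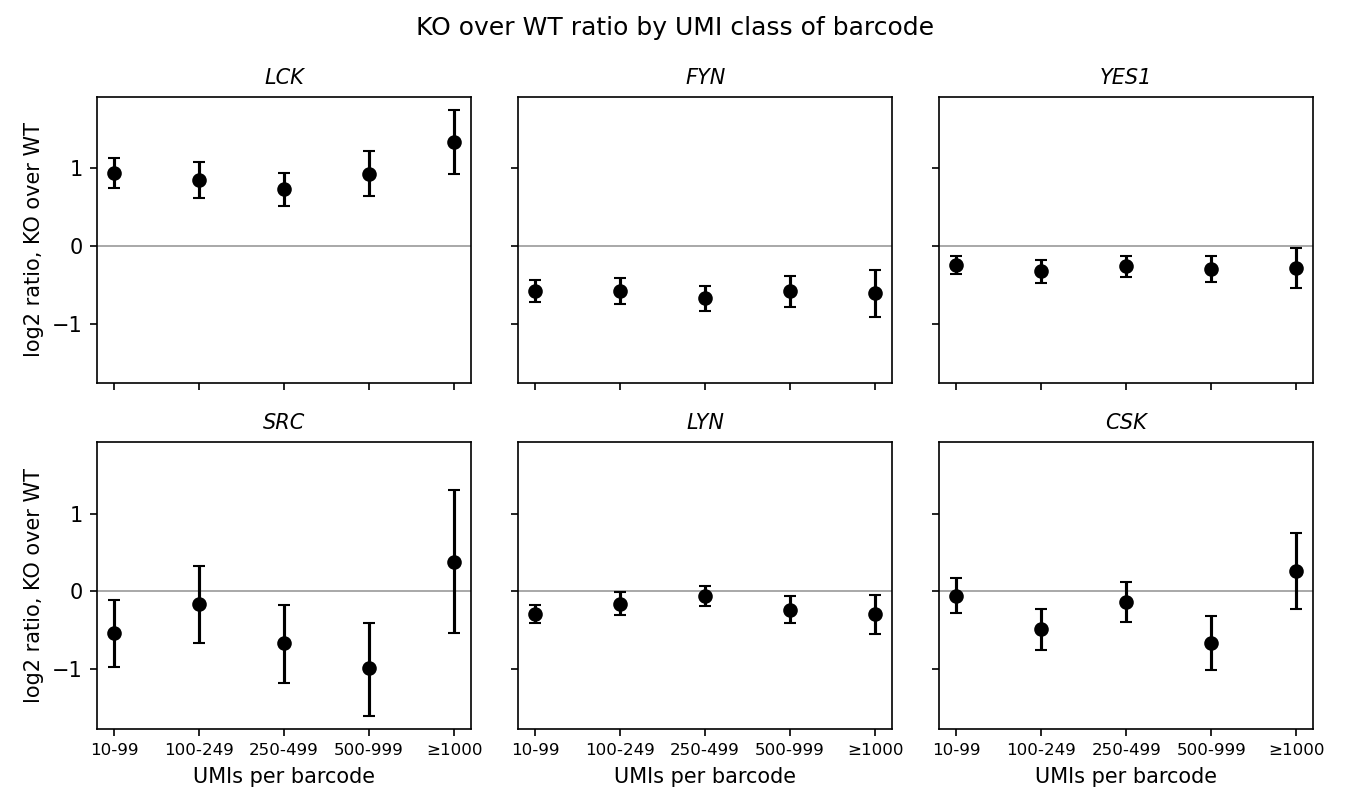
log2 ratio of KO over WT for each of the 6 genes (vertical axis) in 5 classes of UMIs per barcode (horizontal axis); the class of at least 1000 UMIs is the kept cells, and bars are exact 95% counting intervals. LCK lies above 0 and FYN and YES1 lie below 0 in all 5 classes, while SRC and CSK lie above 0 in the kept cells alone.

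In single cells these genes were sparse. Each kept cell was reduced to 1000 UMIs, averaged over all possible draws, so that depth did not set the shares. In WT, 1.61% of cells then held an LCK UMI (interval 1.18% to 2.12%), and in KO 4.0% did (interval 3.22% to 4.87%). The shares before thinning were 2.56% and 6.30%. A FYN UMI was held by 5.93% in WT (interval 5.10% to 6.84%) and by 3.88% in KO (interval 3.14% to 4.77%), and before thinning by 8.72% and 5.77%. If every cell drew its UMIs from the pooled barcodes of 10 up to 100 UMIs, this would give LCK to 1.89% (WT) and 3.58% (KO) of the cells and FYN to 5.57% and 3.77%. All 4 lie within the intervals of the thinned shares, and the part of free RNA was not tested. No cell type that should lack these genes was available as a background.

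The thinned shares of the other genes in WT and KO cells were 6.63% and 5.41% for YES1, 7.47% and 6.22% for LYN, 0.458% and 0.626% for SRC and 1.68% and 2.03% for CSK. Before thinning they were 10.3% and 8.22%, 11.3% and 9.14%, 0.681% and 0.919%, and 2.49% and 3.02%. LCK UMIs were spread thinly over cells: 1 WT cell and 3 KO cells held 2 of them and none held more. Of the 75 WT cells with LCK, 8 also held FYN, and of the 144 KO cells with LCK, 10 did. No UMI of the 5 kinases was seen in 2087 WT and 1680 KO cells.

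KO barcodes held more mitochondrial UMIs (a median of 5.10% in KO and 4.36% in WT kept cells), so the levels were compared at like mitochondrial share. Among kept cells with a share under 2%, LCK was at 21.1 CPM in WT (27 UMIs) and 37.0 CPM in KO (30 UMIs), a 1.76-fold difference (interval 1.01 to 3.07) or a log2 ratio of 0.81. Between 2% and 5% it was at 18.8 and 37.4 CPM, 1.99-fold (interval 1.12 to 3.54) or a log2 ratio of 0.99. Between 5% and 20% it was at 11.8 CPM (24 UMIs) and 44.4 CPM (88 UMIs), 3.77-fold (interval 2.38 to 6.20), a log2 ratio of 1.92. LCK was higher in the KO library in all 3 classes. The ratio was largest in the class of most mitochondrial UMIs, though its interval overlaps those of the other classes.

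The same classes in the shallow barcodes, a comparison added after the first values were seen, gave log2 ratios for LCK of 0.21 (43 and 34 UMIs, interval -0.49 to 0.89), 0.77 (interval 0.53 to 1.01) and 0.94 (interval 0.66 to 1.22) in the same order. The lowest class there holds 4.84% of WT and 3.82% of KO barcodes, and its WT level of 30.7 CPM was above the 19.2 and 18.1 CPM of the other WT classes. FYN in kept cells had ratios of 0.03 (interval -0.58 to 0.63), -0.64 and -0.88 (interval -1.34 to -0.42). These intervals overlap, so a trend of FYN with mitochondrial share is not established. In the shallow barcodes the FYN ratios were -0.64, -0.60 and -0.64.

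**Figure D3:**
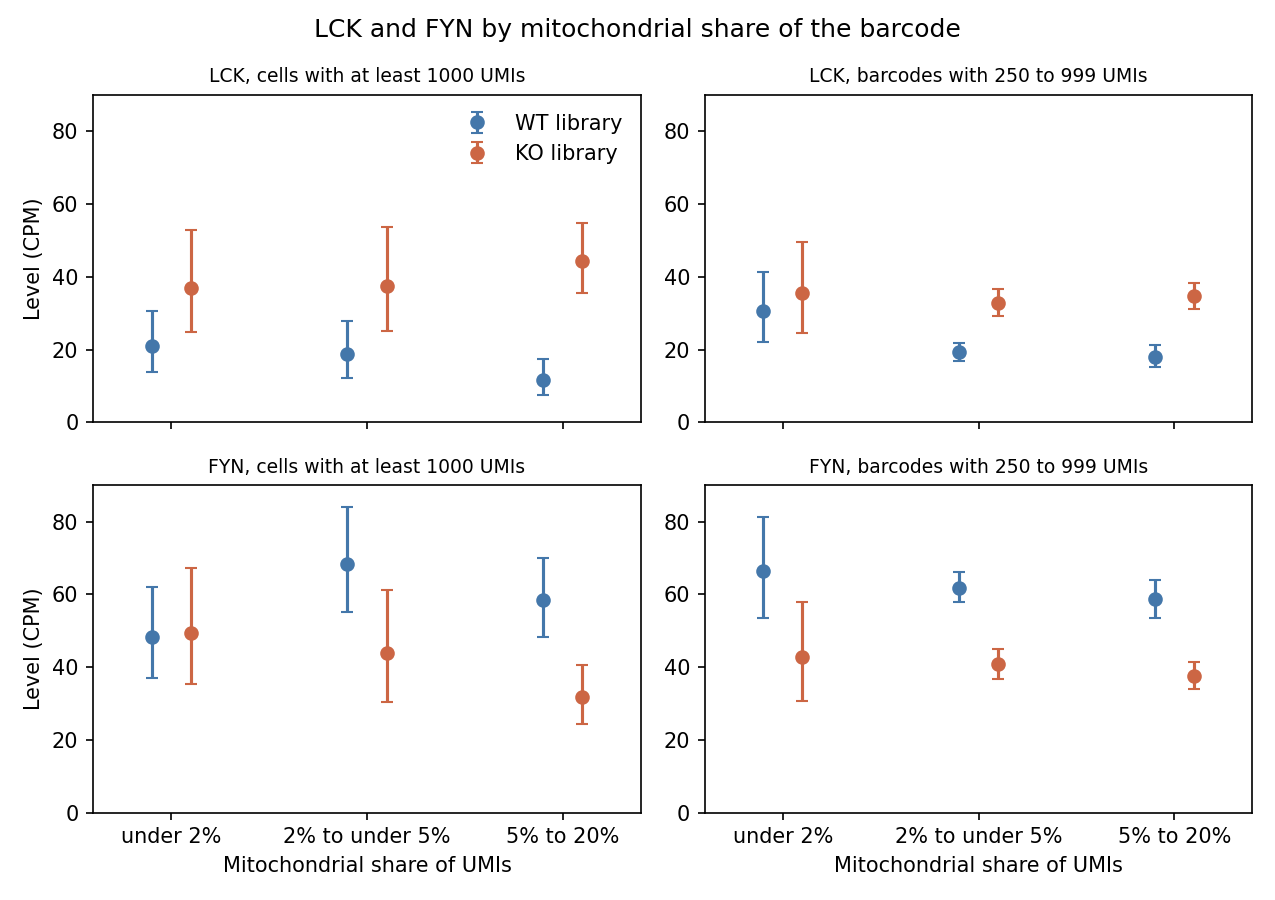
Levels (CPM) of LCK and FYN in 3 classes of the mitochondrial share of a barcode's UMIs, for the WT (blue) and KO (orange) library, in cells with at least 1000 UMIs and in shallow barcodes; bars are exact 95% counting intervals. The LCK levels of the libraries lie farthest apart in cells at 5% to 20% (11.8 and 44.4 CPM). Their intervals overlap in cells under 2%, in cells from 2% to 5% and in shallow barcodes under 2%.

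Transcripts of other states also differed between the libraries. The 12 neuroectoderm markers summed to 1083 CPM in WT and 561 CPM in KO cells, with 9 of the 11 measured at least 1.5-fold lower in KO and 0 that much higher, beside 13.0% and 3.94% of all genes. After 1 thinning draw, in which the log2 ratio over all kept cells was 1.58 for LCK and -0.85 for FYN, 24.9% of WT and 11.1% of KO cells held at least 2 neuroectoderm UMIs. In the cells with fewer than 2, LCK was at 15 CPM in WT (33 UMIs) and 41.8 CPM in KO (85 UMIs), a log2 ratio of 1.48 (interval 0.89 to 2.11). FYN was at 65.8 and 33.5 CPM in those cells, a ratio of -0.98 (interval -1.41 to -0.55). In the neuroectoderm-rich cells LCK rested on 7 WT and 8 KO UMIs. FYN was at 68.4 CPM (50 UMIs) and 63.0 CPM (16 UMIs) in them, a log2 ratio of -0.12 (interval -1.03 to 0.72). The FYN ratio was thus near 0 in the neuroectoderm-rich cells, with an interval that overlaps that of the other cells. The part of this marker difference in the LCK and FYN values was not tested. In the neuroectoderm-rich cells YES1 was at 95.8 CPM in WT (70 UMIs) and 31.5 CPM in KO (8 UMIs). This is a log2 ratio of -1.60 (interval -2.87 to -0.55). In the other cells YES1 was at 61.3 and 62.0 CPM, a ratio of 0.02 (interval -0.34 to 0.38). The intervals do not meet, but the first rests on 8 KO UMIs of 1 draw.

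The 14 genes of G2 and M phase summed to 2440 CPM in WT and 1876 CPM in KO cells, with 4 of 14 at least 1.5-fold lower and 0 that much higher, beside 13.0% and 3.94% of all genes. Cells were classed in the same thinning draw, which gave log2 ratios of 1.58 for LCK and -0.85 for FYN over all kept cells. In it LCK was at 1.53 (interval 0.81 to 2.30) in cells with at least 2 UMIs of the phase genes. In cells with fewer, LCK was at 1.61 (interval 0.74 to 2.56). FYN had ratios of -0.61 (interval -1.10 to -0.14) and -1.19 (interval -1.86 to -0.55) in these classes. LCK was higher and FYN lower in KO in both classes. YES1 was at -0.57 (interval -1.02 to -0.14) in the first class and 0.29 (interval -0.24 to 0.83) in the second. These YES1 intervals overlap. The part of the phase genes was not tested further.

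The defining markers of T cells, the usual place of LCK, were at or near 0. Of the 17 T cell markers looked for, CD28 and TRAC are not among the listed genes. The other 15 summed to 10.1 CPM in WT and 10.7 CPM in KO cells. PTPRC, CD2, CD3G, CD5, CD8A and ZAP70 were at 0 in both, and CD3D and CD3E held 1 UMI each in WT cells and 0 in KO cells. Most of the sum came from CD247 (18 and 6 UMIs) and CD4 (16 and 21 UMIs). Few UMIs came from CD7 (8 and 1) and LAT (2 and 8), and LAT was lower in KO in the shallow barcodes (24 and 13 UMIs). CD27 held 0 and 1 UMI, and LCP2 1 in each. The 8 fibroblast or feeder markers summed to 313 and 422 CPM, of which THY1, also made by embryonic stem cells, gave 248 and 361 CPM. THY1 and COL1A1 (63 and 85 UMIs) were higher in KO. COL1A2 (185 and 118 UMIs), COL3A1 (24 and 0 UMIs) and PDGFRB (23 and 8 UMIs) were lower. DCN was at 0 in both libraries, and LUM and POSTN held at most 4 UMIs. The part of these markers in the LCK and FYN values was not tested.

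Other genes of the pathway were taken from lists by role, 89 genes in all, of which 53 were measured (a mean of at least 5 CPM). In KO cells 4 of these 53 were at least 1.5-fold higher and 11 at least 1.5-fold lower, beside the 3.94% and 13.0% of all genes. Their median log2 ratio was -0.21, and that of all 10129 genes at the same minimum was -0.14. Among regulators 0 of 14 measured genes were higher and 2 were lower. CBLB, a ubiquitin ligase that marks active kinases for breakdown, had a log2 ratio of -0.77 (71 and 32 UMIs, interval -1.42 to -0.15), and UNC119, which binds the lipid-modified start of SRC-family kinases, -0.62 (126 and 63 UMIs, interval -1.08 to -0.17). CBL, a relative of CBLB, was at 0.54 (166 and 185 UMIs, interval 0.23 to 0.85). NMT2, an enzyme that attaches the myristate anchor, was at -0.56 (136 and 71 UMIs).

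Among phosphatases that act on these kinases or in their pathways, PTPN1 had a log2 ratio of -0.38 (432 and 255 UMIs), PTPRA, which removes the inhibitory phosphate, -0.35 (267 and 161 UMIs), PTPN12 -0.30 (593 and 369 UMIs) and PTPN11 -0.10 (594 and 426 UMIs). PTPN2 was at 0.13 (327 and 275 UMIs, interval -0.10 to 0.37) and PTPN6 at 0.44 (25 and 26 UMIs, interval -0.41 to 1.29). These 6, all the phosphatases of the list that were measured, lay within 1.5-fold. The adaptor PAG1, which brings CSK to the membrane, held 13 UMIs in WT and 2 in KO cells, below the minimum. In the shallow barcodes PAG1 held 59 and 14 UMIs, a log2 ratio of -1.90 (interval -2.86 to -1.04), also below the minimum. These phosphatases and PAG1 were named after their values were seen, as were the ITGA5, FGFR3, KIT, CTTN, NEDD9, JAK1 and TNK2 named below to account for each count.

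Of 12 measured receptors that signal through SRC-family kinases, 1 was at least 1.5-fold higher and 3 were that much lower. Over all genes the shares were 3.94% and 13.0%, so the small counts are a description only. ERBB2, a receptor tyrosine kinase, had a log2 ratio of 0.63 (109 and 129 UMIs, interval 0.25 to 1.01). FGFR3, a fibroblast growth factor receptor, was at -1.71 (51 and 12 UMIs, interval -2.75 to -0.78), the fibronectin receptor subunit ITGA5 at -1.62 (40 and 10 UMIs, interval -2.78 to -0.59) and the stem cell factor receptor KIT at -0.65 (47 and 23 UMIs, interval -1.44 to 0.10). ITGB1, the common integrin beta subunit, was at -0.24, FGFR2 at -0.22 and the insulin receptor INSR at 0.31, all within 1.5-fold.

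Of 23 measured substrates and partners, 2 were at least 1.5-fold higher and 4 that much lower, beside 3.94% and 13.0% of all genes. CDCP1, a membrane protein that SRC-family kinases phosphorylate, had a log2 ratio of 0.97 (38 and 57 UMIs, interval 0.35 to 1.60), and CTTN, the actin-binding protein cortactin, 0.69 (169 and 209 UMIs, interval 0.39 to 0.99). NEDD9, a scaffold at adhesions, was at -1.52 (45 and 12 UMIs, interval -2.58 to -0.58), and PIK3R1, the regulatory subunit of PI3-kinase, at -1.22 (109 and 36 UMIs, interval -1.80 to -0.66). RASA1, which turns RAS off, was at -0.89 and PLCG1, the phospholipase downstream of LCK in T cells, at -0.86 (227 and 96 UMIs, interval -1.22 to -0.51).

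Of 7 measured cytoplasmic tyrosine kinases outside the family, JAK1 was at least 1.5-fold higher and TYK2 and TNK2 that much lower. The shares over all genes were 3.94% and 13.0%. JAK1, a kinase of cytokine receptors, had a log2 ratio of 0.65 from 20 and 24 UMIs, with an interval of -0.27 to 1.58 that included 0. TYK2, its relative, was at -0.74 (interval -1.44 to -0.07) and TNK2 at -0.92 (interval -1.97 to 0.05). The focal adhesion kinase gene PTK2 and the ABL kinase genes ABL1 and ABL2 were at -0.30, -0.33 and -0.21. In the shallow barcodes the direction was the same for each gene counted here except JAK1, which was at -0.01. Several lay within 1.5-fold there, among them ERBB2 (0.32), CBLB (-0.48), UNC119 (-0.28), KIT (-0.33) and TNK2 (-0.15, interval -0.55 to 0.25). There 0 of 12 measured receptors were at least 1.5-fold higher and 2 that much lower. Of 6 measured other kinases 0 were higher and 1 was lower, beside 2.79% and 10.1% of all genes.

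**Figure D4:**
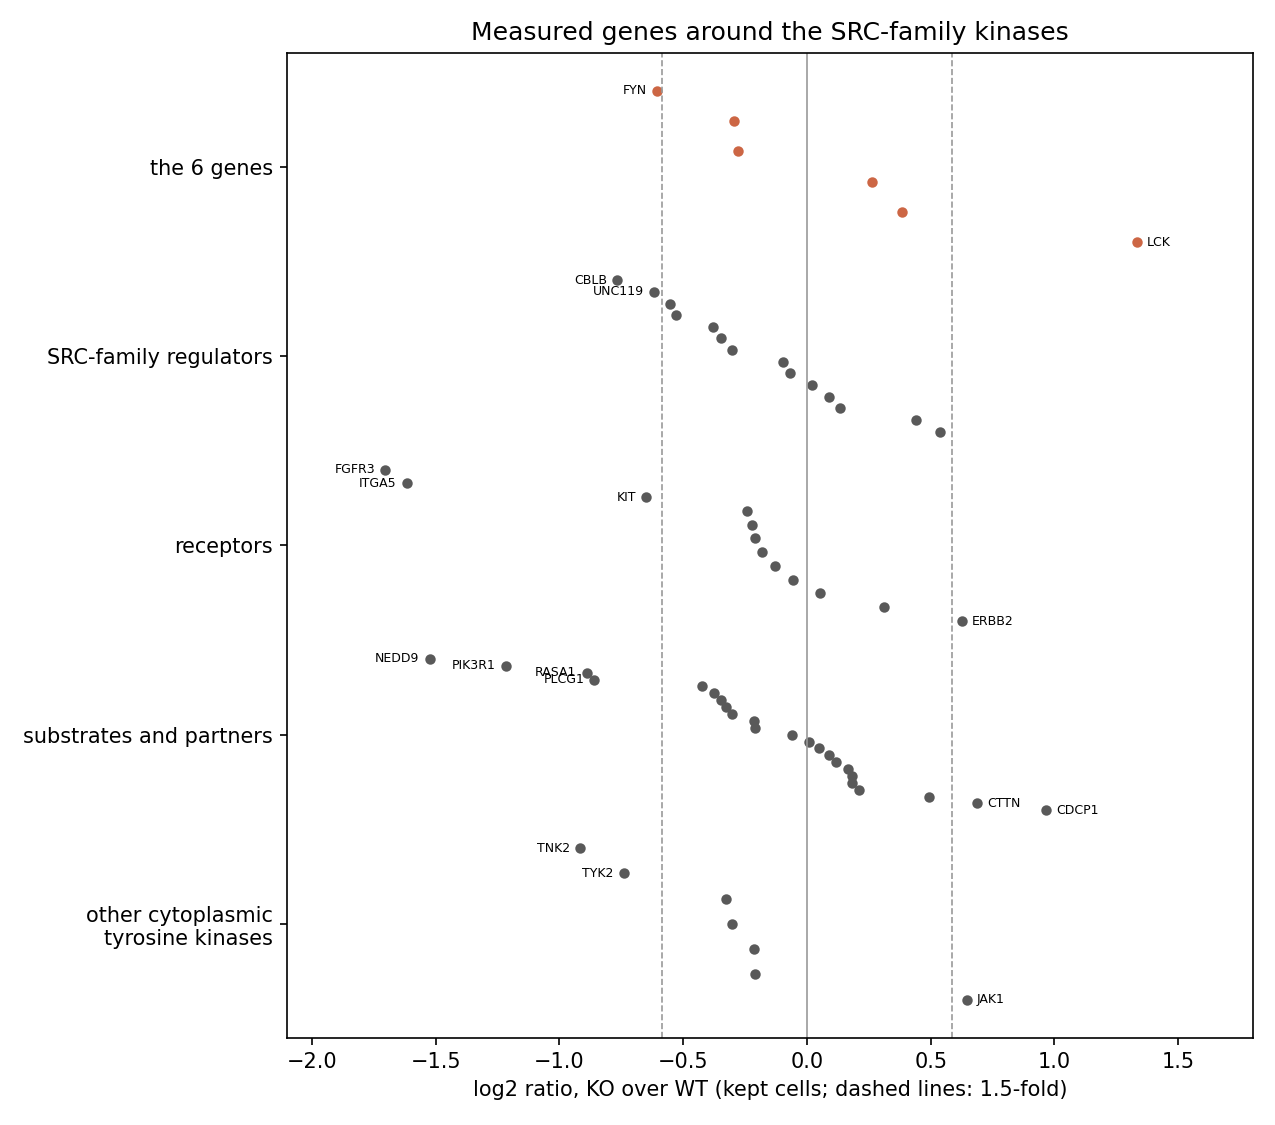
log2 ratios of KO over WT in kept cells (horizontal axis) for the 6 genes (orange) and the measured genes of 4 lists (grey), 1 point per gene, ordered by value within a list; ABL1, ABL2 and PTK2 are in 2 lists. Genes past the dashed 1.5-fold lines are named, and LCK, at 1.33, is the rightmost point, as its choice for a high ratio makes likely.

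LCK was chosen for its high ratio, so that its neighbours on chromosome 1 lie below it follows from the choice, and their values are a description. The 5 nearest genes on each side averaging 20 CPM or more had log2 ratios from -0.56 to 0.57, with 3 higher and 7 lower in the KO library and a median of -0.25. The nearest before it, EIF3I, a translation initiation factor gene that starts 28.9 kb away, was at -0.30 (interval -0.43 to -0.18). The nearest after it, the histone deacetylase gene HDAC1, 40.8 kb away, was at -0.22 (interval -0.54 to 0.09). MARCKSL1, the next of these genes after HDAC1, had the lowest ratio, -0.56 (3148 and 1635 UMIs, interval -0.65 to -0.48). TXLNA (192 and 218 UMIs) and KPNA6 (496 and 527 UMIs), which start 71.6 and 143 kb before LCK, were higher, at 0.57 (interval 0.28 to 0.85) and 0.47 (interval 0.29 to 0.65). KHDRBS1, which encodes the SRC-family substrate SAM68, was at -0.38. PTP4A2 was at -0.24, ZBTB8A at -0.26, ZBTB8OS at 0.02 and RBBP4 at -0.39.

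**Figure D5:**
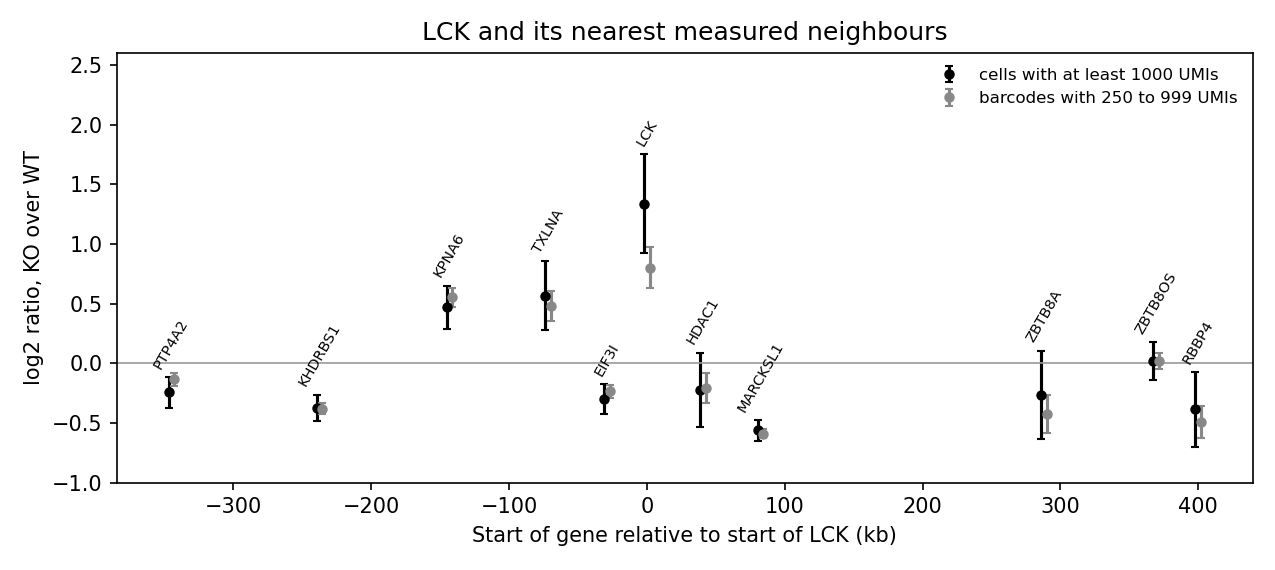
log2 ratio of KO over WT (vertical axis) of LCK and of the 5 nearest genes on each side averaging 20 CPM or more, against the distance of their starts from the start of LCK in kilobases; black points are cells with at least 1000 UMIs, grey points shallow barcodes, and bars exact 95% counting intervals. LCK stands at 1.33, while its neighbours lie between -0.56 and 0.57 in kept cells.

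The genes whose levels followed LCK most closely were sought over 8 sets, the 4 depth classes from 100 UMIs to the kept cells in each library. Likeness was the root mean square difference of log2 CPM after each gene was centred on its own mean. Among 5710 genes SMPDL3B, a lipid-modifying phosphodiesterase gene, was nearest, at 0.0933, followed by PLAAT3, a phospholipase gene (0.101), TMEM64 (0.109), AP1M2, an adaptor subunit of epithelial protein sorting (0.117), and the noncoding FOXD3-AS1 (0.119). The median over all genes was 0.559. SMPDL3B was at 17.0 CPM in WT and 35.0 CPM in KO cells, PLAAT3 at 53.8 and 109 CPM, TMEM64 at 13.3 and 27.7 CPM, AP1M2 at 20.6 and 43.4 CPM and FOXD3-AS1 at 50.3 and 96.4 CPM. The log2 ratios of these 5 genes in kept cells ran from 0.94 to 1.07. The 8 sets come from 2 libraries and are not independent. LCK differed mainly between the libraries and little within each. The measure therefore mostly picks genes with a like ratio of KO over WT, the value LCK was chosen for. It does not show that these genes vary with LCK from cell to cell.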

How the data were processed

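Per the labels' protocols and file contents, each library was deposited by the authors as a matrix of whole-number UMI counts, unscaled. UMI-tools 1.1.2, STAR 2.7.10a, Subread with featureCounts 2.0.1 and hg38 appear in the submitters' processing notes. Their roles, the gene annotation, the strand setting and barcode filters were not given in the sources used here. The matrices held 60578040 WT and 54559376 KO UMIs over 842407 and 841049 barcodes. The KO matrix lists 15 entries beyond the number in its size line, and these were included. Doublets were not removed.

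UMIs were summed over sets of barcodes. Levels have exact Poisson intervals, ratios exact conditional binomial intervals, and shares Clopper-Pearson intervals on expected cell numbers rounded to whole cells. Coordinates and promoters are from RefSeq (GRCh38.p14), the same build as hg38, with promoters of 4 of the 6 genes used. NumPy 2.4.6, SciPy 1.17.1 and pandas 2.3.3 were used.

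The 6 genes, the lists and the naming rule were chosen with earlier results of these data known. Beside the 6 genes and ZNF263, the rule names LCK neighbours, the 5 genes nearest in pattern, and from each pathway list up to 4 genes of largest ratio that average 10 CPM or more. Alternatives to the filters, scaling and limits were recomputed.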

Additional observations from a re-analysis of the deposited data

How the results depend on the processing

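Low counts limit the precision, with 22 UMIs of SRC and 76 and 147 of LCK in the kept cells. No paired analysis was possible because there is 1 library per genotype, and none could be left out. Of the recomputed main values 79 stayed within the interval or within 1.5 times the count, and 23 did not. The log2 ratio of LCK was 0.80 in the shallow barcodes and 0.85 from 100 up to 250 UMIs. That of SRC was -0.56 with at least 500 UMIs and -0.80 in the shallow barcodes. That of CSK was -0.36, -0.33 and -0.49 with at least 500 UMIs, in the shallow barcodes and from 100 up to 250 UMIs. Thinned to 500 UMIs, the log2 ratio of the share of cells was -0.75 for SRC and -0.48 for CSK. Of the 6 genes, 2 were higher when the fold limit was 5 to 4. The count lower was 0 at 2-fold, 0 when the median of all genes was set to 0 and 2 in the shallow barcodes. Of the pathway genes, 7 were higher and 19 lower at a limit of 5 to 4, and 0 and 4 at 2-fold. Among genes averaging 20 CPM or more the counts were 2 and 2, and with no filter on level 16 and 18. In the shallow barcodes they were 2 and 7, beside 2.79% and 10.1% of all genes there. The shares of all genes at the other limits, filters and scaling are not given here. The counts at those settings are therefore not a result about the 6 genes or the pathway. The cause of these moves was not tested, apart from the limits and filters, which change the genes counted. LCK had a ratio above 0 and FYN, YES1 and LYN one below 0 under each of the cell filters, scalings and thinnings tried. Within classes of kept cells, FYN and YES1 did not always lie below 0. With under 2% mitochondrial UMIs FYN was at 0.03 and YES1 at 0.02. YES1 was at 0.29 in cells with fewer than 2 UMIs of the phase genes. The intervals of these 3 values included 0. The intervals of YES1 and LYN included 0 under both other scalings (upper ends 0.04 and 0.09 for YES1, 0.02 and 0.07 for LYN), as did those of YES1 after 1 thinning draw (0.07), of LYN with at least 2000 UMIs (0.02) and of both share ratios.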

Other observations

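ZNF263, the deleted gene, had a log2 ratio of KO over WT that lay nearer 0 in the shallowest barcodes. It was -1.24 in the kept cells (83 and 27 UMIs, interval -1.92 to -0.60), -0.80 from 500 up to 1000 UMIs (133 and 67 UMIs), -0.91 from 250 up to 500 (239 and 113 UMIs), -0.42 from 100 up to 250 (166 and 114 UMIs) and -0.12 from 10 up to 100 (235 and 200 UMIs, interval -0.40 to 0.16). In KO barcodes its level was 7.57 CPM in the kept cells (interval 4.99 to 11) and 11.6 CPM from 10 up to 100 UMIs (interval 10.1 to 13.4). In WT barcodes it was 17.8 CPM (interval 14.2 to 22.1) and 12.7 CPM (interval 11.1 to 14.4).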
